A study of Mus musculus with 4 samples.

Results

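Santa Cruz-only TOP2B peaks at promoters are peaks that 1 of the 2 TOP2B antibodies gave next to the start of a protein-coding gene. They share no base with a peak of the other antibody, although such a peak can lie nearby at the same promoter. They were selected on the peak calls of both lists: a Santa Cruz peak was a member if it shared no base with any Novus peak and if its centre lay within 1 kb of a start of a protein-coding transcript (GENCODE M1, build mm9). The rule gave 2426 members among the 17754 peaks of the Santa Cruz list, of which 16751 shared no base with a Novus peak and 2691 lay at promoters. The Novus list held 3564 peaks. To raise confidence, the study took as its TOP2B peaks those common to both antibodies, so that members, called with 1 antibody, fall outside them. Both libraries were made by ChIPmentation, a ChIPseq protocol that inserts the adapters with a transposase, from thymocytes freshly isolated from wild-type C57BL/6 mice of 4 to 6 weeks of age, fixed in 1% formaldehyde for 10 min. The cells came from whole dissociated thymus and were not sorted. Each antibody has 1 library, so that no replicate error can be given, and the lists hold positions but no read numbers, so that the depth behind a peak is unknown. An antibody, its library and its depth cannot be told apart here, and whether TOP2B was absent from a member in the Novus library was not tested.

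TOP2B is the β isoform of type II topoisomerase. It cuts both strands of one DNA segment, passes another segment through the gap and reseals the cut, which relieves the torsion and tangles that transcription leaves in chromatin. It is known to sit at active promoters and at sites held by CTCF and cohesin, the proteins that anchor chromatin loops. Many mammalian promoters are CpG islands, stretches rich in G and C in which the dinucleotide CpG has not been lost, and these are typical of genes used in many cell types, whereas tissue-specific genes often have promoters poor in CpG. In thymocytes, which pass through T cell receptor rearrangement and selection, the genes of the T cell receptor complex are tissue-specific.

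The members ranged from CpG islands to AT-rich DNA, which is easiest to see in the sequences. The 11 peaks below were taken from members that touched no annotated transcript (548 of the 2426), for the genes that the results name and for the extremes of GC content. They are mm9 sequence over the whole peak, read 5′ to 3′ on the strand of the gene. Capitals mark the letters of the short motifs searched on both strands, namely the GC box (GGGCGG), the CCAAT box (CCAAT), the TATA box (TATAAA), the E-box (CACGTG), the CRE (TGACGTCA), the ETS motif (ACTTCCGG), the NRF1 motif (GCGCATGC) and the YY1 motif (AAGATGGC), and matches to the core consensus of CTCF with up to 1 mismatch.
Zap70, chr1:36818457-36818643, plus strand: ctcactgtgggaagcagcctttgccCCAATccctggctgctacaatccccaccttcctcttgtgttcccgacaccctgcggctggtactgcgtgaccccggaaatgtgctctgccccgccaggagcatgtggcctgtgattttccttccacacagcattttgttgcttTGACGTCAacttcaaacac
Cd6, chr19:10904576-10904762, minus strand: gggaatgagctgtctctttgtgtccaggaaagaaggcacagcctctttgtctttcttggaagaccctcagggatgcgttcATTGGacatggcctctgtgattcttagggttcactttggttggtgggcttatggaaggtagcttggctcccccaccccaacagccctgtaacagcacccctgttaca
Stim1, chr7:109416094-109416280, plus strand: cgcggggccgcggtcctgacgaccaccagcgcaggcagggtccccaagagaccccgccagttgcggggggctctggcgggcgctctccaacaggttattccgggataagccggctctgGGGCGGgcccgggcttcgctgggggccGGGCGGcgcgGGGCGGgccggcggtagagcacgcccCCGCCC
Cxcr4, chr1:130489158-130489344, minus strand: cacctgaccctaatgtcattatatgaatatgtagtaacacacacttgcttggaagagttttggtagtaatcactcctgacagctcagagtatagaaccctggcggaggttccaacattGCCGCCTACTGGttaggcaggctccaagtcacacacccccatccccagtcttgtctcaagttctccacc
Irf1, chr11:53583304-53583490, plus strand: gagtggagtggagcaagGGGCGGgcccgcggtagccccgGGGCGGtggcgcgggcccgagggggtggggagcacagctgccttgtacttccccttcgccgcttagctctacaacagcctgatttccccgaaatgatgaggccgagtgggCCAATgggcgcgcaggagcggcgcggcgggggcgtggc
Ier2, chr8:87186792-87186978, minus strand: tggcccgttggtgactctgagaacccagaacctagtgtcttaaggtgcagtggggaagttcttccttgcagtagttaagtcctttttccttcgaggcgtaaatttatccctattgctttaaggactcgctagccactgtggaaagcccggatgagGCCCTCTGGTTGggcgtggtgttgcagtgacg
Mars, chr10:126748844-126749030, minus strand: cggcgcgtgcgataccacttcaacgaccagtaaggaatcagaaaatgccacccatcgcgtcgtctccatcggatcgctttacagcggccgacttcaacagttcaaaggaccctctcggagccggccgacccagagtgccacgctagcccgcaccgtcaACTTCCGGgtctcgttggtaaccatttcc
Snrpd2, chr7:19734836-19735022, plus strand: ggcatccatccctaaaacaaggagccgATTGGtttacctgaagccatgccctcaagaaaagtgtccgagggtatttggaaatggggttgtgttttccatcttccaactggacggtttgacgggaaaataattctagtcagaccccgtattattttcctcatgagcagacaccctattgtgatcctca
Fut8, chr12:78339719-78339905, plus strand: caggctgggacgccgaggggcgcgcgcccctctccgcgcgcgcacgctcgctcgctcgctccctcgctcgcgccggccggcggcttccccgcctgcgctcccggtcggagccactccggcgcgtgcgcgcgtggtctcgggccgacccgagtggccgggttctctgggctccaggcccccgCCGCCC
Erbb2ip, chr13:104711300-104711486, minus strand: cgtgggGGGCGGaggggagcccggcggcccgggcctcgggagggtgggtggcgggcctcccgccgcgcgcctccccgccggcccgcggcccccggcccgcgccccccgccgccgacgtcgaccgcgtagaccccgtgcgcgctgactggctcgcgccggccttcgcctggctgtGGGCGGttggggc
Stard3nl, chr13:19488209-19488395, minus strand: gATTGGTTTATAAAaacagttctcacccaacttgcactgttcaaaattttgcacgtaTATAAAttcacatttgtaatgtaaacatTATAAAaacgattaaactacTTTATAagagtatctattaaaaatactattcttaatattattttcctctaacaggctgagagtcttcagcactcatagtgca

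The *Zap70* peak, 145 bp upstream of the start of the kinase that carries the T cell receptor signal, had a CCAAT box and a CRE and a GC content of 56.1%. The *Cd6* peak, 121 bp upstream of a T cell adhesion receptor gene, held 1 CpG in its whole length. By contrast, the *Stim1* peak, 151 bp upstream of the gene for the calcium sensor of the endoplasmic reticulum, held 24 CpG and reached 78.1% GC. The *Irf1* peak, 119 bp upstream of an interferon-induced transcription factor gene, held 19 CpG, GC boxes and a CCAAT box. The peaks at *Cxcr4*, the receptor for the homing chemokine CXCL12 (381 bp upstream), and at *Ier2*, an immediate early gene (134 bp upstream), had GC contents of 48.7% and 51.9% and each held 1 match to the CTCF core. The peak at *Mars*, the methionyl-tRNA synthetase gene (95 bp upstream), held an ETS motif, and that at *Snrpd2*, a gene for a core protein of the spliceosomal snRNPs (142 bp upstream), a CCAAT box. Among members off every transcript and off chromosome 18, the peak at *Erbb2ip* had the highest GC content (85.6%) and the peak at *Stard3nl* the lowest (28.3%). The latter held TATAAA on both strands, although its centre lay 681 bp upstream of the start. A motif match is a description of the letters and not of a bound factor.

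Members gathered at the start itself and leaned slightly downstream. The centre lay upstream of the closest start in 1136 members (46.8%, exact 95% interval 44.8 to 48.8), downstream in 1283 (52.9%, 50.9 to 54.9) and on the start in 7. The rule uses the distance but not the side. The distance was limited to 1 kb and taken to the closest start, which favours short distances, and no expected shares were computed. Within 100 bp of the start lay 660 members (27.2%), within 200 bp 1078 (44.4%) and within 500 bp 1802 (74.3%), and 632 (26.1%) covered the start. The median absolute distance was 247 bp. The sides were even close to the start, with 325 of the 660 members within 100 bp upstream (49.2%, 45.4 to 53.1) and 900 of the 1802 within 500 bp (49.9%, 47.6 to 52.3). The downstream excess came from the 624 members beyond 500 bp, of which 236 were upstream (37.8%, 34.0 to 41.8). All intervals cover counting error only.

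**Figure D1:**
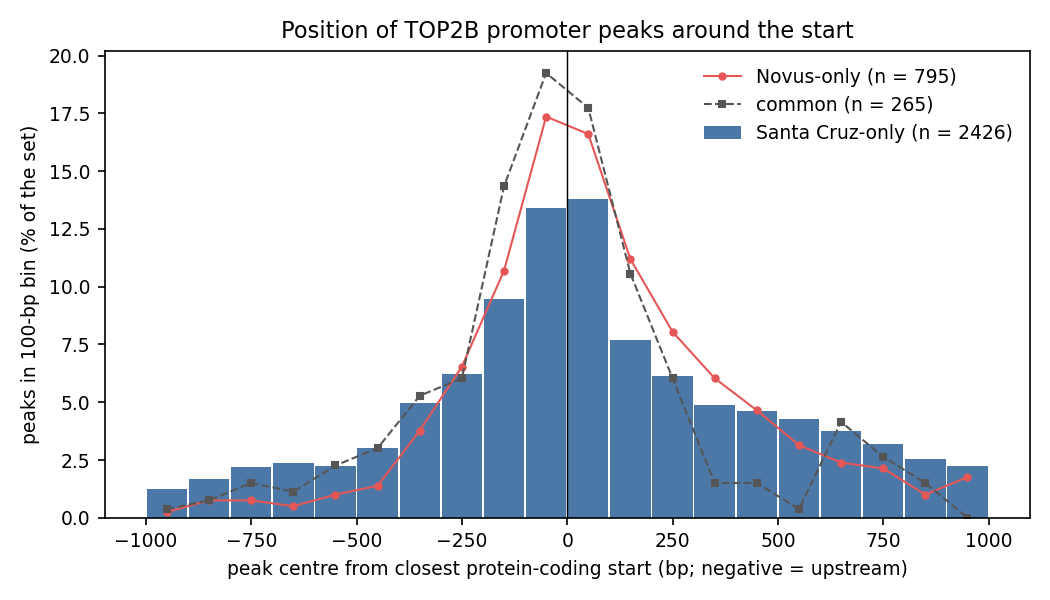
The distance of the peak centre from the closest protein-coding start is on the x axis (bp, negative upstream) and the share of each set's peaks in bins of 100 bp on the y axis, with 2426 Santa Cruz-only peaks as bars and 795 Novus-only and 265 common promoter peaks as lines. Santa Cruz-only peaks centre on the start but have heavier tails, with 44.4% within 200 bp against 55.8% of Novus-only and 62.3% of common peaks.

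Against the annotation, 768 members (31.7%) had their centre in an exon, 914 (37.7%) in an intron and 744 (30.7%) outside every annotated transcript. Of the 1136 members upstream of their closest start, 740 (65.1%) lay outside transcripts, and the other 129 in exons and 267 in introns, where a longer transcript of the same gene or another gene ran over the site. The closest start was the most 5′ start of its gene in 1519 members (62.6%). Among the 1603 members at genes with several annotated starts it was the most 5′ one in 696 (43.4%, 41.0 to 45.9), and an internal start was closest in the rest.

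The spread around the start differed from that of the other promoter peaks. Novus-only promoter peaks, of which there were 795, lay within 200 bp of the start in 55.8% (52.3 to 59.3), and the 265 Santa Cruz peaks at promoters that shared bases with a Novus peak, called common here, in 62.3% (56.1 to 68.1). The members' 44.4% (42.4 to 46.4) lay below both intervals. This difference was described and not tested. The share upstream was tested by Fisher's exact test (two-sided, Benjamini-Hochberg adjustment over 8 tests of 4 features against 2 sets). It was 46.8% in the members and 43.0% in Novus-only peaks (exact test, adjusted p = 0.0867), and 143 of 265 in common peaks (adjusted exact p = 0.0444). The latter call was lost with 1 peak per gene (difference of -6.66 percentage points, exact test, adjusted p = 0.0682), and with both lists extended by 1 kb the difference shrank to -1.59 points (exact test, adjusted p = 0.725). These tests compare the peak lists of single libraries, not conditions, and peaks at 1 gene are not independent.

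At the limits of the rule, the members farthest from a start were those of *Dqx1* and *Ppia* (997 bp) and *Phospho1* (994 bp), and the nearest Santa Cruz-only peaks left out lay 1003 bp from starts of *Satb1*, *Lbh* and *Gne*. The member at *Tnfaip1* abutted a Novus peak (0 bp between them), and those at *Trerf1* and *Bard1* lay 1 and 3 bp from one, whereas peaks at *Pisd* and *Apaf1* shared 3 bp with a Novus peak and were left out. Such near misses were few. A Novus peak lay within 100 bp of 53 members (2.18%) and within 1 kb of 183 (7.54%), and the median gap to the nearest Novus peak was 97631 bp. The study draws TOP2B at *Cxcr4*, *Notch1* and *Bcl11b*, with browser tracks from the Novus library and not from the Santa Cruz one. In these tracks it reports TOP2B signal at the promoter of each of these genes. Of these genes, *Cxcr4* was the 1 with a member, at chr1:130489158-130489344. The nearest Santa Cruz peaks to starts of the other two, a receptor and a transcription factor of T cell commitment, lay 1216 and 4276 bp downstream of a start and were not members, although both were Santa Cruz-only.

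The members were richer in G and C than promoters at large. Their median GC content was 59.1% (quartiles 51.9 and 66.3, range 26.7 to 87.2), 1924 (79.3%) reached 50% GC and 384 (15.8%) reached 70%. GC content falls with distance from a start, so all 45969 distinct protein-coding starts were measured in windows of the same length, weighted to the members' distances. The mean was 58.9% in the members and 53.9% at all starts at the same distances. The members' median lay above that of all starts in each of the 20 bins of 100 bp. Members within 100 bp of the start had a median of 64.2%, and those beyond 500 bp 50.8% upstream and 52.9% downstream. GC content can alter PCR yield and peak calling, and its part in these lists was not tested.

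**Figure D2:**
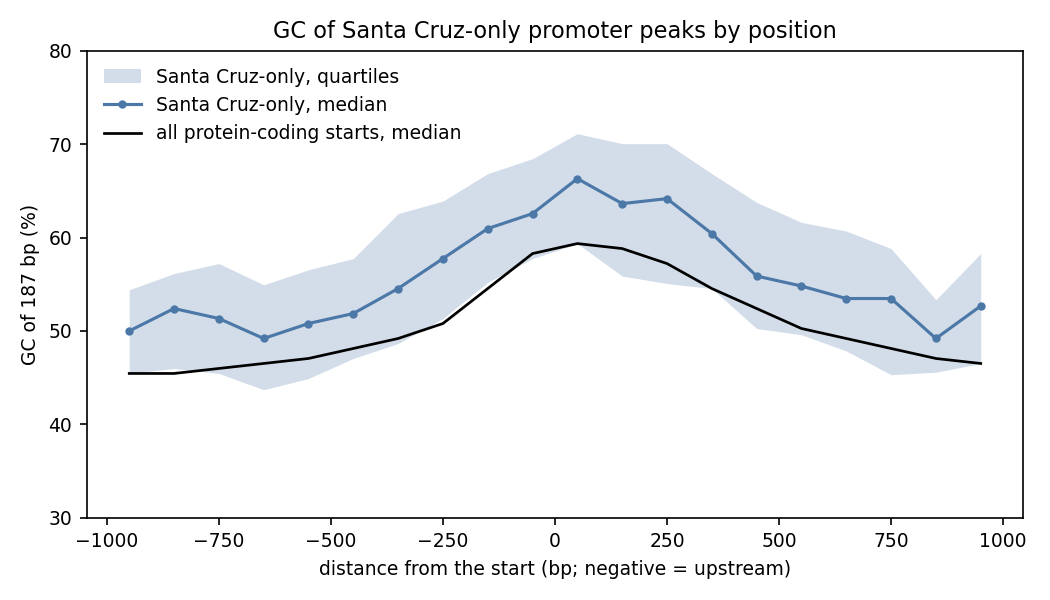
GC content of windows as long as a peak (y axis, %) against the distance from the start (x axis, bp, negative upstream, bins of 100 bp), with the median and quartiles of the Santa Cruz-only peaks in blue and the median over 45969 protein-coding starts in black. The blue median lies above the black line in all 20 bins, and both are highest around the start.

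By a stricter measure, CpG-rich sequence (500 bp around the centre with at least 55% GC and an observed over expected CpG ratio of at least 0.65), 1125 members qualified (46.4%, 44.4 to 48.4), against 27.7% of all starts at the same distances. The share was 65.5% within 100 bp of the start (432 of 660). Beyond 500 bp it was 93 of 388 downstream and 23 of 236 upstream (9.75%), whose exact intervals of 19.8 to 28.5% and 6.28 to 14.3% did not overlap. At all starts the share was likewise lower upstream, at 3.88 to 9.88% over the bins beyond 500 bp, against 5.23 to 17.0% downstream. The more distant members of both sides lay mostly outside CpG-rich DNA.

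The members were nevertheless less CpG-rich than the promoter peaks that the Novus antibody gave. Novus-only promoter peaks were CpG-rich in 63.8% (507 of 795), which was higher, by a difference of -17.4 percentage points for members minus Novus-only (Fisher's exact test, adjusted p = 1.1e-16), and common peaks in 60.4% (160 of 265; adjusted p = 7.05e-05). Median GC was 63.6% in Novus-only and 61.5% in common peaks. The Novus-only and common peaks lie closer to the start, where promoters at large are richer in CpG. The share at all starts was 32.0% and 31.7% when weighted to their distances, and 27.7% when weighted to those of the members. The part of distance in the lower CpG-rich share of the members was not tested.

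Of the short motifs, the GC box was more frequent in the members than at starts at large and the TATA and CCAAT boxes were less so. The GC box was in 815 members (33.6%) and in 22.5% of all starts at the same distances. The TATA box was in 105 members (4.33%) against 7.69%, and CCAAT was in 447 members (18.4%) against 21.1%. Novus-only and common promoter peaks had the GC box in 43.3% and 45.7% and the TATA box in 3.14% and 3.40%. All starts were matched to the members by distance but not by GC content, which was higher in the members. Its part in the motif shares was not tested. Of the rarer motifs, the E-box was in 109 members (4.49% against 3.55%), the ETS motif in 54 (2.23% against 1.44%), the YY1 motif in 49 (2.02% against 1.60%), the NRF1 motif in 29 (1.2% against 1.03%) and the CRE in 24 (0.989% against 0.618%). The exact intervals of the YY1 and NRF1 shares, 1.5 to 2.66 and 0.802 to 1.71, took in the share at all starts. A GC box and a CCAAT box occurred together in 149 members.

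A match to the CTCF core consensus within 250 bp of the centre was found at 241 members (9.93%, 8.77 to 11.2). At all starts at the same distances, not matched for GC content, it was 6.04%. Common peaks had it in 17.0% (45 of 265), a difference, members minus common, of -7.05 percentage points (Fisher's exact test, adjusted p = 0.00274). With both lists extended by 1 kb before sharing was judged, that difference was -3.46 points and no longer passed (exact test, adjusted p = 0.0652). Novus-only peaks had it in 9.18%, 0.752 points below the members (exact test, adjusted p = 0.582), so that no difference was detected between the antibody-specific sets.

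**Figure D3:**
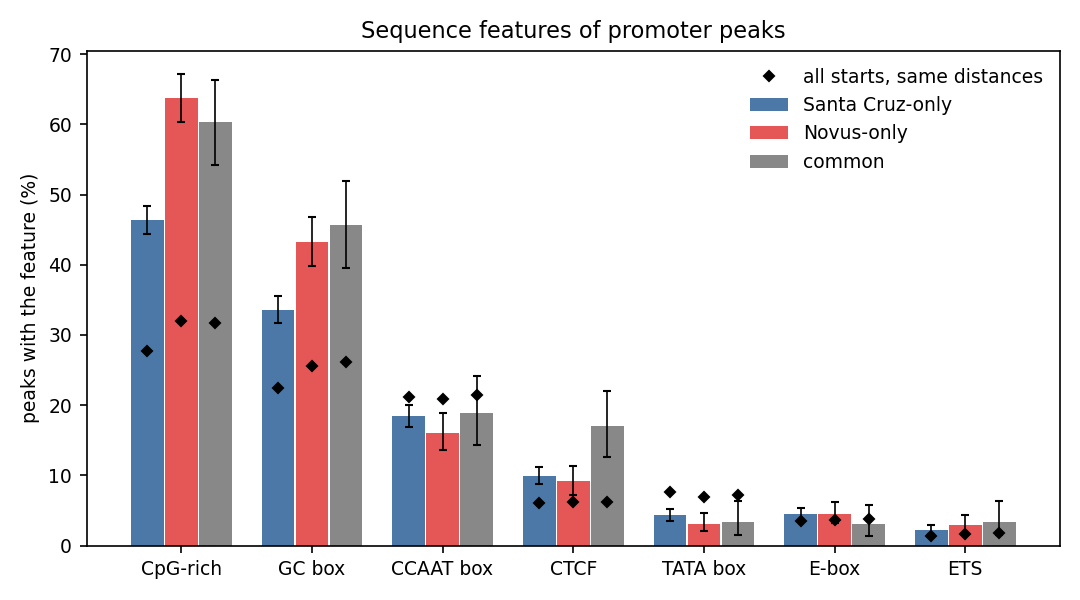
Share of promoter peaks (y axis, %) that are CpG-rich or hold a motif (x axis), for Santa Cruz-only (n = 2426), Novus-only (n = 795) and common (n = 265) peaks, with exact 95% intervals as error bars. Black diamonds give all protein-coding starts at the distances of each set, and CpG-rich sequence and the GC box stand above them in all 3 sets, TATA below.

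Some members served starts of both strands. Starts of opposite strands lay within 1 kb of 206 members (8.49%), a smaller share than the 12.1% of Novus-only promoter peaks (exact test, adjusted p = 0.00642) and beside 7.17% of common peaks (exact test, adjusted p = 0.582). In 156 of them the closest starts of the 2 strands pointed away from each other, 188.5 bp apart in the median, and in 51 of these the peak centre lay between the starts. A peak at chr9:53344826-53345012 lay between the divergent starts of *Atm*, the kinase of the DNA double-strand break response, and *Npat*, a regulator of histone genes, 74 and 233 bp upstream of them. Another, at chr13:21845762-21845948, lay between the histone genes *Hist1h2ak* and *Hist1h2bn*, 79 and 137 bp upstream of their starts. A peak at chr17:34324462-34324648 lay between the overlapping starts of *Tap1*, a peptide transporter of antigen presentation, and *Psmb9*, an immunoproteasome subunit, 57 and 142 bp downstream of their starts. The chaperonin partners *Hspd1* and *Hspe1* likewise shared 1 peak of 72.7% GC. In all, 221 members (9.11%) lay within 1 kb of starts of several genes.

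Counted by gene, 2454 of 22365 protein-coding genes (11.0%) had a member. The share was 17.5% among the 9436 genes whose most 5′ start was CpG-rich and 6.22% among the other 12929. Consequently 67.2% of the genes with a member had a CpG-rich promoter, against 42.2% of all genes. Longer genes and genes with more starts had members more often. The share was 15.1% in the 5591 longest genes and 4.67% in the 5592 shortest, and rose from 7.39% with 1 annotated start through 13.1% with 2 or 3 to 19.6% with 4 or more, where more starts also give more chances to count. The median length was 25924 bp with a member and 15427 bp over all genes. By chromosome, leaving aside Y (0 of 17 genes), the share was lowest on X, with 33 of 932 genes (3.54%, 2.45 to 4.94), and highest on 11, with 235 of 1654 (14.2%, 12.6 to 16.0). Among genes with a member, 8.76% (215) had a Novus peak at a start, which shared no base with the member. Over all genes it was 5.11%. The rule removes Santa Cruz peaks that overlap a Novus peak, so the difference between these shares was not read.

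The gene lists below were drawn up by symbol, with earlier results of these data known, and are read against the 11.0% of all genes without a test. Gene length and number of starts, with which the share rose, were not matched between any list and all genes. RNA was not measured in these libraries, so that expression and promoter peaks were not compared. T cell receptor signalling had the highest share, with a member at 16 of 34 genes (47.1%, 29.8 to 64.9). Among those closest to a start were *Prkcq*, protein kinase C θ (85 bp upstream), *Zap70* and *Stim1*. Others, named after their values were seen, included *Grb2*, *Lck*, *Lat*, *Sh2d1a*, *Nfatc1*, *Vav1*, *Nfatc3*, *Nfatc2*, *Rasgrp1*, *Plcg1* and *Sos1*. They ran from the receptor-proximal kinases through the adaptor LAT to the NFAT factors. Of the 18 peaks at these genes, 6 lay upstream of the start. The members at the NFAT genes and *Vav1* lay in introns, 505 to 636 bp downstream.

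The T cell receptor complex, coreceptors and surface molecules had a member at 6 of 24 genes (25%, 9.77 to 46.7). None of these 24 genes had a CpG-rich promoter, so that the fitting background is 6.22%. The members were at *Slamf1*, an activation receptor, 1 bp upstream, at *Cd6*, at *Ptprc* (the phosphatase CD45, 177 bp downstream), at *Cd4* (211 bp downstream), and at *Cd28* and *Cd3g* (229 and 241 bp downstream). Cytokine and chemokine receptors and homing molecules had members at 13 of 37 genes (35.1%). The interferon receptor gene *Ifnar2* had a peak centred on its start, and *Il17ra*, the receptor of IL-17, one 7 bp downstream. *Tgfbr2*, a TGFβ receptor gene, had members 40 and 622 bp downstream, and *Itgb2*, the common β chain of leukocyte integrins, one 79 bp upstream.

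Transcription factors of the T lineage had members at 13 of 41 genes (31.7%). They lay 29 bp downstream of the start of *Hes1*, a target of Notch signalling, 105 bp downstream at *Foxp1*, 107 bp downstream at *Ets2* and 114 bp upstream at *Tox*, a factor of thymocyte selection. *Runx1* had a member on each side, 163 bp upstream and 491 bp downstream of its closest starts. Immediate early genes had members at 10 of 36 (27.8%), with 7 among the 30 with a CpG-rich promoter and 3 among the other 6. They included *Ppp1r15a*, a stress-induced phosphatase subunit gene (62 bp downstream), *Irf1*, *Ier2* and *Gadd45a*, a DNA damage response gene (295 bp downstream). Survival and death genes were nearer to the background, at 4 of 28 (14.3%), namely the death receptor gene *Fas*, *Bbc3*, *Cflar* and *Bad*. Antigen presentation and MHC genes had members at 7 of 45 (15.6%). Of these 45 genes, 39 lacked a CpG-rich promoter, and 6 of the 39 had a member, beside the 6.22% of all such genes. The members closest to a start were at *Tap1*, *H2-T3*, *H2-Ke6* and *Psmb9*. *H2-Ke6* is a gene of the MHC region that encodes an enzyme and was caught by its symbol.

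Over the immune lists together, 69 of 245 genes had a member (28.2%, 22.6 to 34.2). The share was 33.3% for those with a CpG-rich promoter (36 of 108; all genes 17.5%) and 24.1% for the others (33 of 137; all genes 6.22%). The share thus lay above that of all genes in both classes of promoter.

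Over the lists of housekeeping genes 116 of 639 genes had a member (18.2%, 15.2 to 21.4). Most of them, 477, had a CpG-rich promoter, and their share of 18.4% (88 genes) was near the 17.5% of all such genes. The share of the other 162 was 17.3% (28 genes), beside 6.22%. The shares of single lists below are over both classes of promoter. Cytosolic ribosomal proteins had members at 19 of 83 genes (22.9%), closest at *Rpl36a* (6 bp downstream), *Rps9* (8 bp upstream), *Rpl29* (13 bp downstream) and *Rps27a* (29 bp downstream). Pre-mRNA splicing genes had members at 13 of 65 (20%), translation factors at 13 of 66 (19.7%), aminoacyl-tRNA synthetases at 7 of 37 (18.9%), and mitochondrial ribosomal proteins at 14 of 76 and the proteasome at 9 of 49 (18.4% each). Heat shock proteins and chaperonins followed with 17 of 96 (17.7%) and RNA polymerase II, its general factors and Mediator with 14 of 80 (17.5%). Oxidative phosphorylation, at 10 of 87 (11.5%), was at the background.

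Genes that maintain and copy the genome had members at 72 of 365 (19.7%, 15.8 to 24.2). Of the 251 with a CpG-rich promoter 51 had one (20.3%, all genes 17.5%), and of the other 114 it was 21 (18.4%, all genes 6.22%). Unless split, the shares of single lists below are over both classes of promoter. Chromatin remodelling and histone modification genes had 27 of 116 (23.3%), closest at *Ino80*, the ATPase of a nucleosome remodeller (9 bp downstream), *Arid4a*, *Ino80c* and the deacetylase gene *Hdac10*. DNA replication and cell cycle genes had 23 of 102 (22.5%), with *Plk1*, a mitotic kinase (6 bp upstream), and *Cdk2* (7 bp downstream) closest; *Cdk20* and *Cdk5* came next and are in the list by family name. V(D)J recombination and double-strand break repair genes had 8 of 41 (19.5%), with 5 among the 30 with a CpG-rich promoter and 3 among the other 11. They included *Hmgb1*, a cofactor of the RAG recombinase (5 bp upstream), *Atm*, *Bard1*, a partner of BRCA1 (133 bp downstream), and the Ku subunit gene *Xrcc6* (307 bp upstream). Cohesin, condensin and CTCF-related genes had 5 of 30 (16.7%) and 4 of the 27 with a CpG-rich promoter, with *Stag1* and *Smc3*, cohesin subunits, 24 and 55 bp upstream, *Ncapg*, a condensin subunit, 54 bp upstream, and the cohesin loader gene *Nipbl* 602 bp downstream. Replication-dependent histones were near the background at 8 of 67 (11.9%), and of the topoisomerases and their repair enzymes *Top1mt*, the mitochondrial type I enzyme, was the 1 gene of 9 with a member.

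At the other end stood genes of other tissues, with members at 12 of 1748 (0.686%, 0.355 to 1.2). Olfactory receptors had 5 of 1087 (0.460%), vomeronasal and taste receptors 0 of 360 and keratins with their associated proteins 0 of 96. Cytochrome P450 genes had 1 of 76 (1.32%, *Cyp2u1*) and ion channel genes 6 of 129 (4.65%). Nearly all of these genes lack a CpG-rich promoter, but their share there, 8 of 1690 (0.473%), also lay below the 6.22% of such genes. Developmental regulators had members at 6 of 144 genes (4.17%, 1.54 to 8.85), although 55 of them had CpG-rich promoters, of which 2 had a member (3.64% against 17.5%). Those with one closest to a start were *Hoxa7*, a body axis factor (49 bp downstream), *Tbx18*, *Barhl1* and *Lhx2*, and clustered protocadherins, neuronal adhesion molecules, had 0 of 24. Zinc finger genes of the Zfp series were near the background at 51 of 388 (13.1%).

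**Figure D4:**
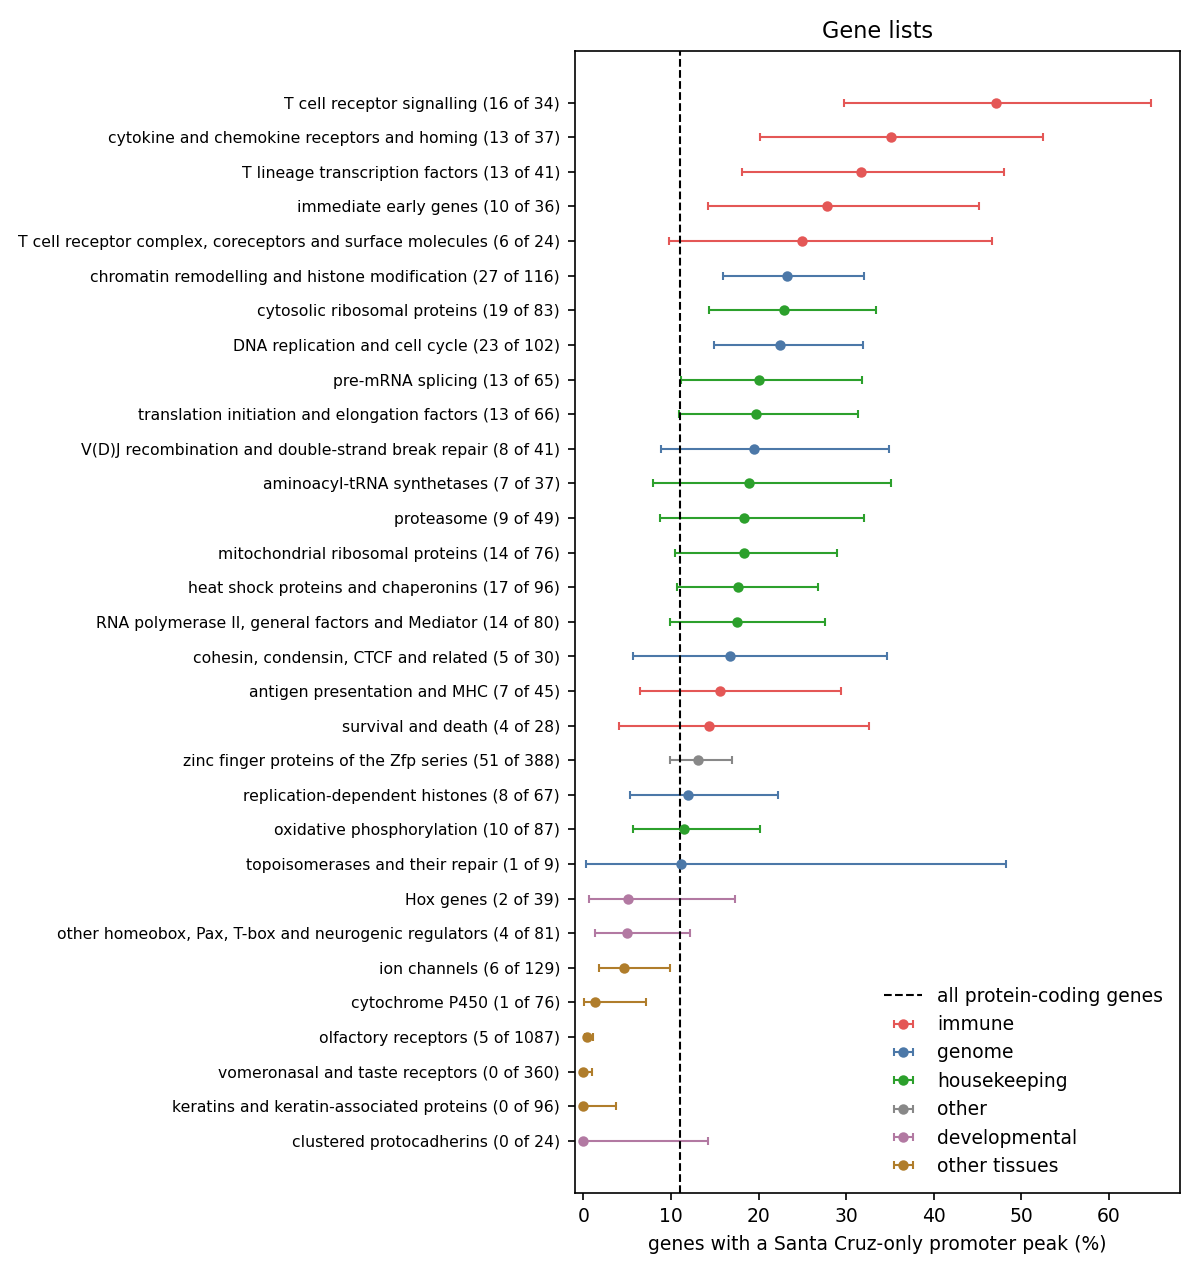
Share of genes with a Santa Cruz-only promoter peak (x axis, %) in each gene list (y axis, with the number of genes with a member and of genes found), with exact 95% intervals as bars and colours for the class of list. The dashed line is the 11.0% of all protein-coding genes, and T cell receptor signalling (47.1%) stands farthest to its right and receptors of smell, taste and pheromones at its left.

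Markers of cell types were counted as well, although a member is a binding call with 1 antibody and not expression. Of the markers, 1 had a CpG-rich promoter, so that the fitting background is the 6.22% of genes without one. Of 12 T cell markers 5 had a member (*Ptprc*, *Lck*, *Cd4*, *Cd3g* and, 882 bp downstream of a start, *Rag2*). Of 6 B cell markers *Cd79b* had one and of 6 thymic epithelium markers *Ly75*, and none of 6 myeloid and 5 erythroid markers did. With 5 or 6 markers each, the counts of 0 or 1 for the other cell types were not read as a difference from the background, and the share of those cells in the sample was not measured.

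Most genes with a member had 1 (2269), while 175 had 2 and 10 had 3. The 185 genes with several members (7.54%, 6.52 to 8.66) depend on the distance set for a promoter, with 70 at 500 bp and 340 at 2.5 kb, and on the starts used, with 112 for the most 5′ start of each gene. They were of 2 kinds. In 135 of them, 2 or more members lay within 1 kb of the same start, and in the other 50 the members lay at different starts only. The former had 255 peaks, had a CpG-rich promoter in 69.6% (94 of 135), near the 67.2% of all genes with a member, and had members on both sides of the start in 81. Among them 43 had a single annotated start, so that their peaks cannot be assigned to alternative starts. *Egr1*, an immediate early transcription factor gene, had 1 annotated start with members 880 bp upstream and 417 bp downstream, and *Socs1*, an inhibitor of cytokine signalling, had members 952 bp upstream and 390 bp downstream of its single start. Both were named after their values were seen. Members had close neighbours more often than the list at large, since another Santa Cruz peak lay within 1 kb of 232 members (9.56%) and of 733 of all 17754 peaks (4.13%). Of the members, 4 overlapped the member before them and none was an identical row, and 17 of all Santa Cruz peaks overlapped the peak before them. The part of overlapping calls in the close neighbours was not tested.

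Promoters with 3 members at 1 start were found at *Fut8*, *Spg7* and the uncharacterised *4930481A15Rik*. At *Fut8*, the fucosyltransferase that adds core fucose to N-glycans, members lay 846 and 240 bp upstream and just downstream, with GC contents of 64.2%, 81.8% and 80.7%; the middle one is printed above. At *Spg7*, a protease of the mitochondrial inner membrane, they lay 19 bp upstream and 304 and 787 bp downstream of its closest starts, with GC contents of 50.8%, 73.3% and 48.7%. At *4930481A15Rik* they lay 758 bp upstream and 9 and 410 bp downstream. *Ubtf*, a transcription factor of ribosomal RNA genes, and *Unc13d*, which primes cytotoxic granules for release, had 3 members within 1822 and 2185 bp. At *Hk1*, a hexokinase gene, the members spanned 13081 bp, at *Anxa2* 26351 bp, at *Lims1* 49054 bp, at *Arpp21* 49553 bp and at *D18Ertd653e* 295698 bp, each around starts far apart. Genes of the immune lists show both kinds. The members of *Cflar*, an inhibitor of death receptor signalling, lay 357 bp upstream and 358 bp downstream of their closest starts. The *Cflar* members began 724 bp apart, whereas those of *Lck* began 14594 bp apart, at different starts.

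**Figure D5:**
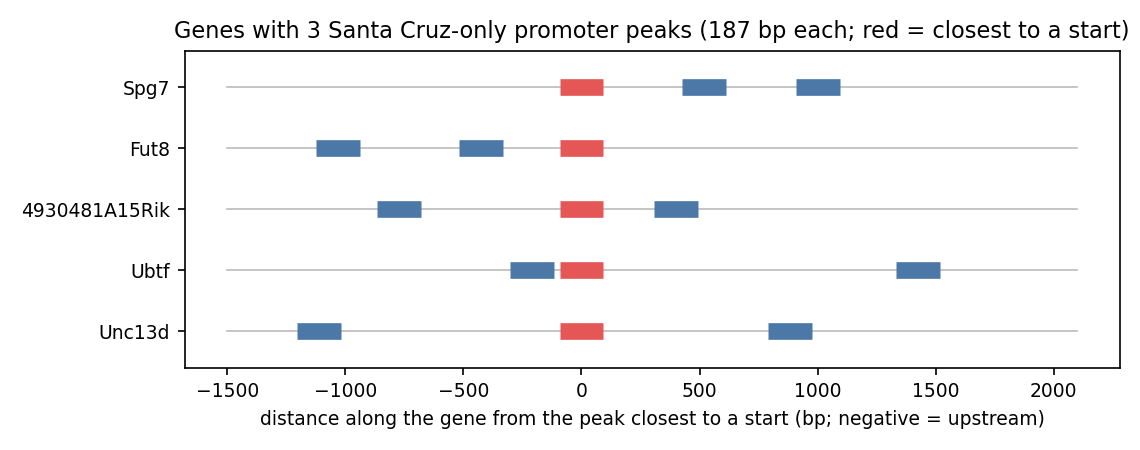
Positions along the gene (x axis, bp, negative upstream) of the 3 Santa Cruz-only promoter peaks of 5 genes (y axis), drawn to scale and set to 0 at the peak closest to a start, in red. The peaks are separate, and those of Spg7, Fut8 and 4930481A15Rik fit within 1188, 1220 and 1362 bp.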

How the data were processed

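TOP2B binding was measured by ChIPseq in thymocytes of wild-type C57BL/6 mice, with 1 library per TOP2B antibody (Santa Cruz and Novus). According to the study's methods and reporting summary, the authors aligned reads to mm9 with Bowtie 1.2.0 (version per the submitters' processing notes) and called peaks per library with HOMER in factor style, with thresholds of 10-fold over IgG and 1% FDR. The deposited values are peak positions, with 1 fixed width per list. The deposited score column is 0 throughout. Total reads are not in the lists. The IgG and TOP2A libraries were not used here.

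Positions were set against GENCODE M1 starts and mm9 sequence with Python 3.11.15, pandas 2.3.3, pysam 0.24.0 and scipy 1.17.1. Sharing meant 1 bp, and a promoter 1 kb from the peak centre to a start. Distances were taken to the closest start of the gene named, otherwise of any gene. Shares have exact (Clopper-Pearson) 95% intervals, and 8 differences between peak sets were tested by Fisher's exact test with Benjamini-Hochberg adjustment. The steps were tested on simulated data. Members and gene lists were chosen with earlier results of these data known. Genes named were the 10 with most members, up to 4 per list closest to a start, *Cxcr4*, *Bcl11b*, *Notch1*, and the GC extremes printed; other genes were named after their values were seen. Of the listed symbols, *Ptcra*, *Gfi1* and *Znf143* matched no protein-coding start. Some genes that the rule names are not reported here. Alternatives were other definitions of sharing, promoter, start and CpG-rich sequence, and 1 peak per gene.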

Additional observations from a re-analysis of the deposited data

How the results depend on the processing

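The number of members and of genes with a member stayed within 1.5 times the reported count under every alternative (1802 to 3311 members). A promoter distance of 500 bp changed the upstream share to 49.9%, the median GC content to 61.5%, the CpG-rich share to 56.0% and the genes with several members to 70. A distance of 2.5 kb gave a median GC content of 55.6%, 35.1% CpG-rich members and 340 genes with several members. With the most 5′ start of each gene alone, these were 60.4%, 51.2% and 112. Median GC content was 59.4% where sharing required 50% of both peaks, and also where it required centres within 100 bp. The looser definition of CpG-rich sequence (50% GC, ratio 0.6) gave 57.1%. The difference from common peaks in the upstream share lost its call with 1 peak per gene (-6.66 percentage points, exact test, adjusted p = 0.0682) and with both lists extended by 1 kb (-1.59, adjusted p = 0.725), and the difference from common peaks in the CTCF core share lost its call with the extension (-3.46, adjusted p = 0.0652); the cause was not tested. Of 64 alternative values, 48 were counted within their limits and none reversed. The median GC content of 59.4%, with sharing by 50% or by centres, was counted outside its limits. To the digits given, it lies on its upper limit of 59.4%. Requiring the same start for several members, an alternative chosen after seeing the data, gave 135 genes. A stricter list by peak score was not run, since every score is 0. No paired analysis was possible because each antibody has 1 library.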
